A study of Homo sapiens with 9 samples.

Results

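Wnt proteins, the Frizzled receptors that bind them and the secreted antagonists of the SFRP and DKK families were described in RNA-seq of 293T cells that carried a plasmid for a single transcription factor (TF). The members were the protein-coding genes with a GENCODE symbol of WNT, FZD, SFRP or DKK and a number. This symbol rule uses no measured value, but it was chosen with earlier results of these data known. They came to 37 of 19818 protein-coding genes and of 57163 genes in all, with 19 ligands, 10 receptors and 8 antagonists. 293T is an embryonic kidney cell line that holds the SV40 large T antigen.

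The tested libraries came from cells transfected with the plasmid pLV[Exp]-EGFP-EF1A, in which the EF1A promoter drives the open reading frame of NRF1, E2F4, EGR1, ZBTB7A, HOXA11, RORA, TFCP2 or NKX2-8. The study grouped the first 4 as CLB_TFs, TFs that preferentially bind promoters of conserved long non-coding RNAs, and the other 4 as control TFs. The control library is labelled blank, while the methods of the study describe an empty plasmid, and RNA was taken 48 h after transfection. There was 1 library for each of the 9 conditions, so no contrast of a TF library with the control library has a replicate check, and each describes its pair of libraries. All 8 such comparisons share the control library. The cells were transiently transfected cultures of 1 line, and the share of cells that took up a plasmid was not measured here.

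Wnt ligands are secreted lipid-modified proteins that bind a Frizzled receptor on the receiving cell together with the co-receptor LRP5 or LRP6. In the canonical branch this stabilises beta-catenin, which acts with TCF and LEF proteins on target genes, while other ligands act through planar cell polarity and calcium branches. SFRP proteins bind the ligands outside the cell, and DKK1 binds the LRP co-receptors. 293 cells have an intact canonical branch and are widely used for reporter assays of it.

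Libraries held 14177970 to 18915400 counts, and 23344 to 26296 genes had a count, with 26166 in NRF1, 26296 in EGR1 and 23344 in the control library. The inserted TF was 28.4-fold (TFCP2) to 1182-fold (NKX2-8) above the control library in its own library. The control library itself had 9812 TFCP2 counts, where the other 7 TF libraries had 653 to 703, so the control library stood apart for that gene. All 10 markers of the 293 background (such as VIM, PAX2 and NEFM) were at 1 CPM (counts scaled to the library's size, with TMM factors) or more in every library. The 10 fibroblast markers summed to 28.6 to 45.3 CPM and the 8 leukocyte markers to 2.65 to 6.04 CPM, with at most 4 counts for COL1A2 and at most 1 for PTPRC in any library. The 5 endothelial markers summed to 3.28 CPM in the NRF1 library and 0.109 CPM in the control library, with 49 KDR counts in NRF1 and 2 in the control. VWF had 3 counts in NRF1, and CDH5, TEK and CLDN5 had none there. In bulk RNA, fewer cells with a transcript and less of it per cell cannot be told apart.

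A member was said to have risen or fallen when its log2 fold change, computed with a prior count of 2 that draws low counts towards 0, was 2-fold or more and the higher of the pair had 1 CPM or more. Ratios carry exact 95% intervals that cover counting error only. Of the 14 ligands that could be tested in any library 8 rose in at least 1 TF library, of the 6 antagonists 3, and of the 10 receptors none. The share of all protein-coding genes that rose in at least 1 library was not computed, so these counts have no background beside them. These 11 genes made up 23 gene-library pairs, and no member fell. In the E2F4 library 8 of the 37 members rose (28 could be tested), with 3.35% of all protein-coding genes tested having risen. In the NRF1 library 7 rose (30 tested), with a background of 6.48%. The ZBTB7A library had 4 risen members (28 tested, background 1.72%) and the EGR1 library 2 (27 tested, background 2.13%).

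In the 4 libraries of control TFs the counts were lower. The HOXA11 library had 1 risen member (26 tested), with 0.951% of all protein-coding genes tested having risen. The NKX2-8 library also had 1 (28 tested), with a background of 2.42%. The RORA and TFCP2 libraries had none of 26 tested, with backgrounds of 0.375% and 0.319%. None fell in any library, where the background of falling genes was 0.0920% (NRF1), 0.111% (E2F4), 0.149% (EGR1), 0.166% (ZBTB7A), 0.166% (HOXA11), 0.183% (RORA), 0.0877% (TFCP2) and 0.315% (NKX2-8). Between 1 (HOXA11, RORA, TFCP2) and 5 (NRF1) of the tested members were at 1 CPM only in the TF library. Such a member could pass only by being higher there. In NRF1 these 5 were WNT2, WNT4, WNT7A, DKK2 and SFRP4, all of them among its 7 risen members. In E2F4 WNT2, WNT4 and WNT7A were such members, and all 3 rose. Risen members of this kind were also WNT4 and WNT7A in ZBTB7A, WNT7A in EGR1 and SFRP4 in NKX2-8. Of the 11 ligands at 1 CPM or more in all 9 libraries, 1 rose in NRF1 and 4 in E2F4. In EGR1 1 of them rose, in ZBTB7A 2, in HOXA11 1 and in RORA, TFCP2 and NKX2-8 none. Under the same limit 2.36% (NRF1), 2.19% (E2F4), 0.562% (EGR1), 0.628% (ZBTB7A) and 0.322% (HOXA11) of protein-coding genes rose. In RORA, TFCP2 and NKX2-8 these shares were 0.0744%, 0.0579% and 0.835%.

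**Figure D1:**
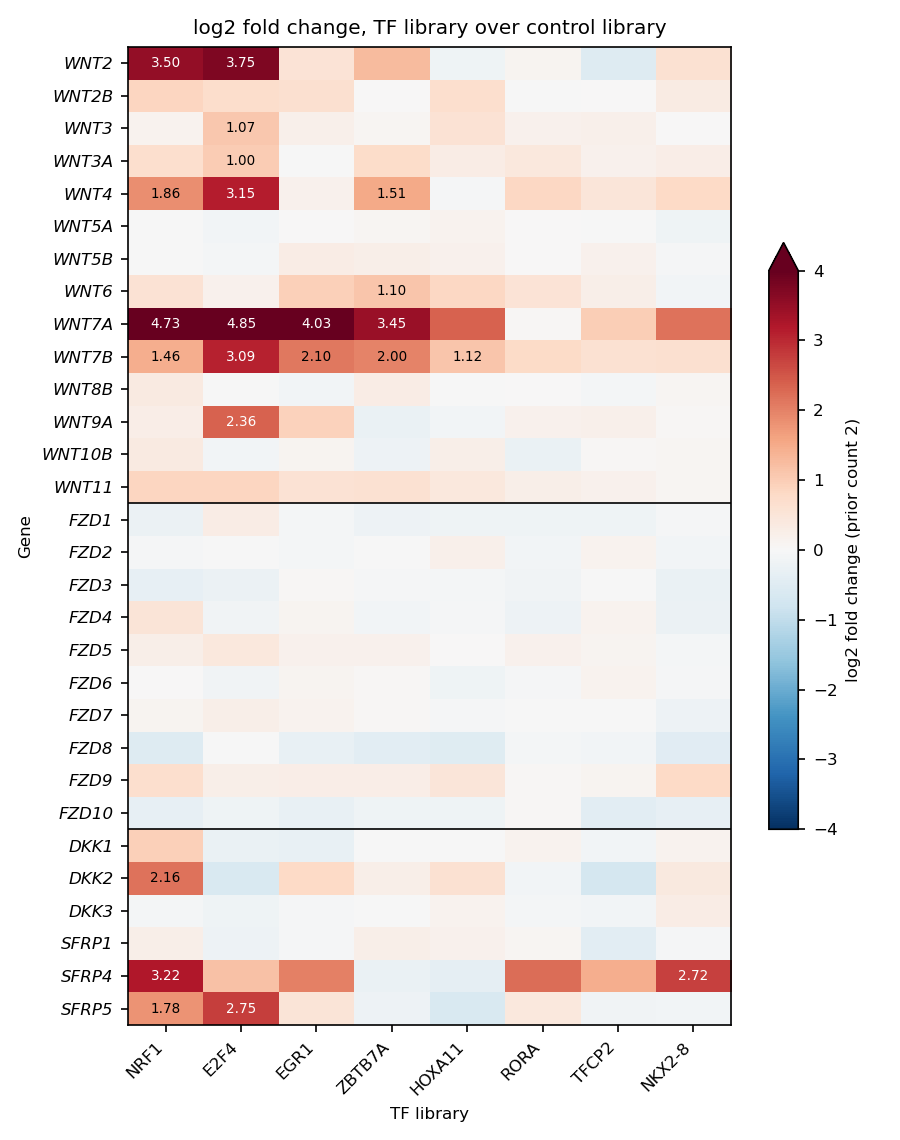
Log2 fold change (prior count 2) of each member at 1 CPM or more in any library, with genes as rows (ligands, receptors and antagonists separated by lines) and the 8 TF libraries as columns, each over the control library. Numbers stand in the 23 gene-library pairs that were called, which lie in 8 ligand and 3 antagonist rows, 15 of them in the NRF1 and E2F4 columns.

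The 11 ligands at 1 CPM or more in all 9 libraries, which leaves out WNT2, WNT4 and WNT7A, had a median log2 fold change of 0.37 in the NRF1 library, 0.70 in E2F4, 0.30 in EGR1, 0.23 in ZBTB7A, 0.30 in HOXA11, 0.17 in RORA, 0.17 in TFCP2 and 0.07 in NKX2-8. The median of the 12095 protein-coding genes under the same limit lay between -0.06 and 0.00 in these libraries. Summed over the 19 ligands, the level was 121 CPM in NRF1, 156 in E2F4, 109 in EGR1, 111 in ZBTB7A, 105 in HOXA11, 93.0 in RORA, 91.7 in TFCP2 and 87.8 in NKX2-8, against 83.9 CPM in the control library. The control library therefore had the lowest summed ligand level of the 9, and the E2F4 library the highest.

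WNT7A, a ligand known from dorsal limb patterning and the female reproductive tract (chr3:13857755-13921568 of GRCh37, minus strand), had the largest fold changes. It had 72 counts in the NRF1 library, 88 in E2F4, 44 in EGR1, 26 in ZBTB7A, 13 in HOXA11, 1 in RORA, 4 in TFCP2 and 10 in NKX2-8, against 1 in the control library. Every CLB_TF library was above every other library, and RORA and the control library had 1 count each. The ratio to the control library was 83.5 (14.5 to 3344) in NRF1, 90.6 (15.8 to 3619) in E2F4, 50.5 (8.61 to 2041) in EGR1 and 33.0 (5.43 to 1355) in ZBTB7A. In the control TF library HOXA11 it was 14.2 (2.14 to 604), without a call because WNT7A stayed under 1 CPM there (0.773). In NKX2-8 WNT7A also stayed under 1 CPM (0.664). These intervals are wide because the control library gave a single count. The ratio to the mean of the control TF libraries was 10.5 in NRF1, 11.4 in E2F4, 6.37 in EGR1 and 4.16 in ZBTB7A.

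WNT7B, a close relative of WNT7A with roles in lung, placenta and blood vessels of the brain (chr22:46316246-46373042, minus strand), was called in more libraries than any other member. Its counts were 84 in NRF1, 298 in E2F4, 133 in EGR1, 112 in ZBTB7A, 70 in HOXA11, 53 in RORA, 50 in TFCP2 and 44 in NKX2-8, against 34 in the control library. The ratio to the control library was 9.02 (6.32 to 13.3) in E2F4, 4.49 (3.06 to 6.76) in EGR1, 4.19 (2.83 to 6.34) in ZBTB7A, 2.87 (1.90 to 4.40) in NRF1 and 2.25 (1.47 to 3.50) in HOXA11. The control library was the lowest of the 9. With the other 7 TF libraries averaged as the baseline, the log2 fold change of WNT7B was -0.30 in NRF1 and -0.67 in HOXA11, and that of WNT7A in ZBTB7A was -0.14, so these 3 calls change sign with the baseline.

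WNT2, a ligand of lung and placental development, (chr7:116915505-116963206, minus strand), rose in NRF1 and E2F4. It had 59 counts in NRF1, 79 in E2F4, 6 in EGR1, 10 in ZBTB7A, 3 in HOXA11, 4 in RORA, 2 in TFCP2 and 6 in NKX2-8, against 4 in the control library. The ratios to the control library were 17.1 (6.34 to 64.9) in NRF1 and 20.3 (7.64 to 76.5) in E2F4.

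WNT4, a ligand needed for kidney tubule formation and ovary development (chr1:22443806-22470462, minus strand), had 55 counts in NRF1, 155 in E2F4, 16 in EGR1, 39 in ZBTB7A, 14 in HOXA11, 27 in RORA, 22 in TFCP2 and 24 in NKX2-8, against 16 in the control library. It rose in E2F4 (9.97-fold, 5.95 to 17.9), NRF1 (3.99-fold, 2.25 to 7.45) and ZBTB7A (3.10-fold, 1.69 to 5.94). Against the mean of the control TF libraries the ZBTB7A ratio was 2.03, and its log2 fold change with the prior count was 0.96, below the 2-fold limit.

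WNT9A, which acts in joint formation (chr1:228106357-228135633, minus strand), rose in E2F4 alone, with counts of 288 in E2F4, 59 in NRF1, 95 in EGR1, 36 in ZBTB7A, 47 in HOXA11, 57 in RORA, 61 in TFCP2 and 47 in NKX2-8, against 56 in the control library (E2F4 ratio 5.30, 3.97 to 7.18). Its neighbour WNT3A, 59.065 kb away on chromosome 1 in the opposite orientation and a classic activator of the canonical branch, had 389 counts in E2F4, 276 in NRF1, 170 in EGR1, 261 in ZBTB7A, 224 in HOXA11, 239 in RORA, 213 in TFCP2 and 197 in NKX2-8, against 199 in the control library. It was at the limit of the call in E2F4 (2.01-fold, 1.69 to 2.40). Both genes of this pair were therefore highest in the E2F4 library, but WNT9A differed from the control library by a larger ratio than WNT3A, with intervals that do not overlap.

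WNT3, another canonical ligand, had 147 counts in NRF1, 317 in E2F4, 155 in EGR1, 128 in ZBTB7A, 213 in HOXA11, 158 in RORA, 168 in TFCP2 and 128 in NKX2-8, against 154 in the control library. The E2F4 ratio was 2.12 (1.74 to 2.59). WNT6, which is known from epithelial structures of the limb and somites, had 58 counts in NRF1, 48 in E2F4, 76 in EGR1, 76 in ZBTB7A, 73 in HOXA11, 59 in RORA, 50 in TFCP2 and 33 in NKX2-8, against 44 in the control library. It was called in ZBTB7A (2.20-fold, 1.49 to 3.26) and lay just under the limit in EGR1 (1.98-fold, 1.35 to 2.94). The calls of WNT3 and WNT3A in E2F4 and of WNT6 in ZBTB7A were lost against the mean of the control TF libraries, where their log2 fold changes were 0.81, 0.71 and 0.68.

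**Figure D2:**
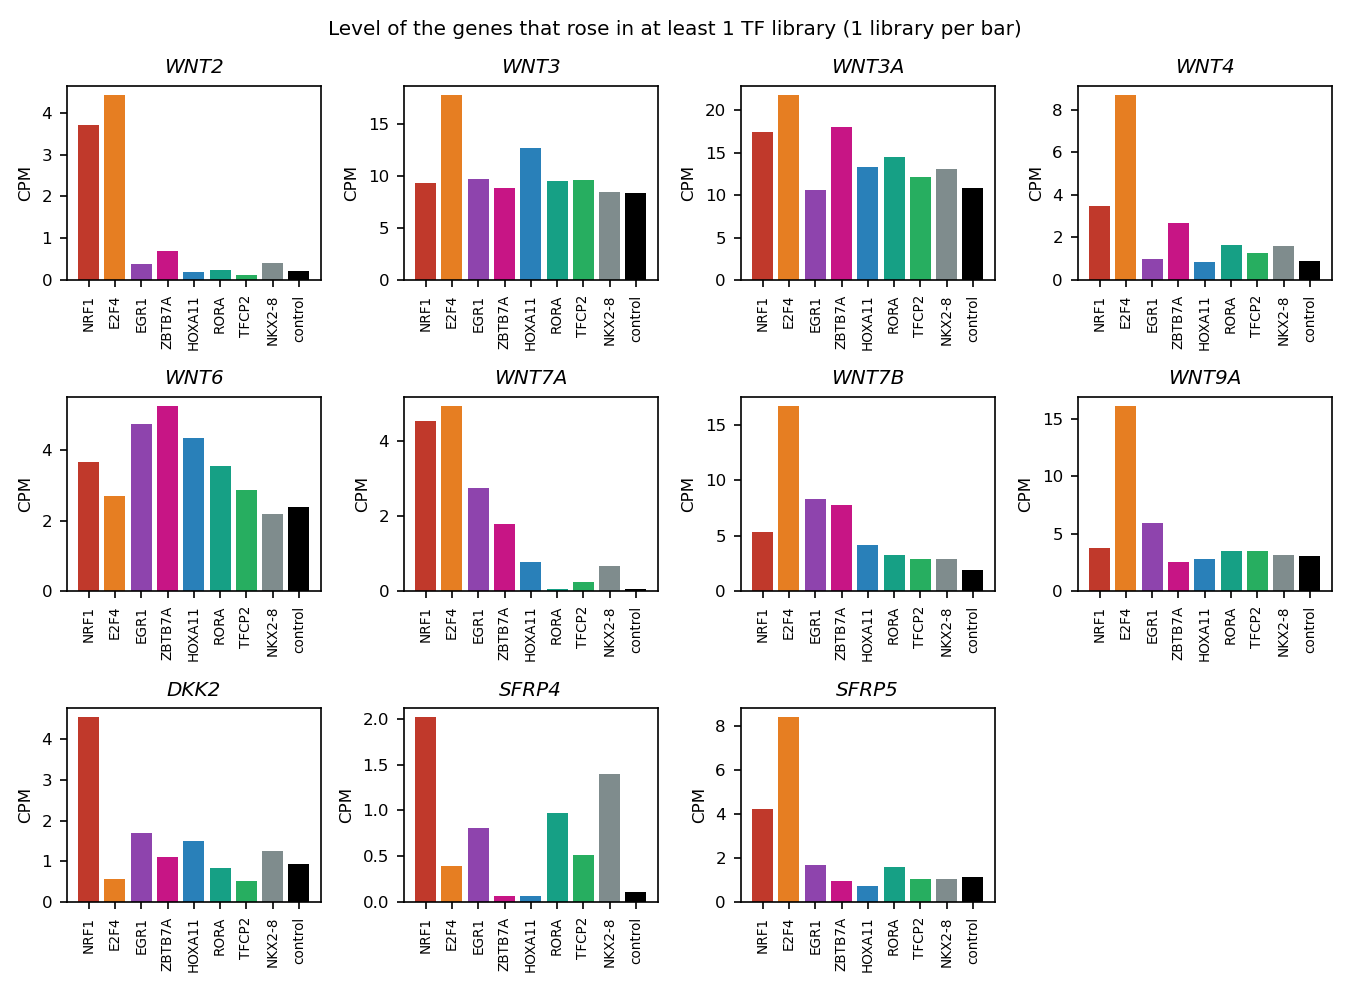
Level in CPM of the 11 members that rose in at least 1 TF library, with 1 bar for each library (8 TF libraries, then the control library) and an axis from 0 in each panel. The E2F4 bar is the highest for WNT2, WNT3, WNT3A, WNT4, WNT7A, WNT7B, WNT9A and SFRP5, and the NRF1 bar for DKK2 and SFRP4.

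Of the ligands at 1 CPM or more that were never called, WNT11, a ligand of the non-canonical branch, had 243 counts in NRF1, 271 in E2F4, 198 in EGR1, 184 in ZBTB7A, 189 in HOXA11, 162 in RORA, 164 in TFCP2 and 132 in NKX2-8, against 153 in the control library. Its ratios of 1.84 in NRF1 and 1.82 (1.49 to 2.24) in E2F4 stayed below 2. The other such ligands were WNT5A (320 to 444 counts in the TF libraries and 441 in the control library), the prototype of non-canonical signalling, and WNT5B (150 to 204 and 190). WNT10B had 105 to 171 counts in the TF libraries and 155 in the control library, WNT2B had 35 to 71 and 44, and WNT8B had 37 to 52 and 46.

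The 5 remaining ligands did not reach 1 CPM in any library and could not be called. Their highest counts were 13 for WNT9B and 8 for WNT10A, both in NRF1, 8 for WNT8A in NRF1, 6 for WNT16 in NRF1 and 2 for WNT1 in ZBTB7A. In NRF1 the ratio to the control library was 5.03 (1.38 to 27.5) for WNT9B and 9.28 (1.24 to 412) for WNT8A, and WNT10A, with no count in the control library, was at least 3.09-fold higher against a floor of 3 counts there. In EGR1 WNT10A (7 counts) was at least 2.68-fold higher against the same floor. The few counts behind these ratios give wide intervals. WNT9B lies 46 bases from WNT3 on chromosome 17, WNT10A lies 6.618 kb from WNT6 on chromosome 2, and WNT1 lies 6.586 kb from WNT10B on chromosome 12, so that each of these 3 low genes has an expressed ligand next to it.

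Promoters of the members were searched because 3 of the inserted TFs have well-known consensus sequences. The 500 bases before the start of the canonical transcript (GENCODE v44lift37, GRCh37) were searched on both strands for the palindromic consensus of NRF1, for TTTCCCGC and TTTGGCGC (E2F4) and for GCGTGGGCG and GCGGGGGCG (EGR1), and 19539 promoters of protein-coding genes were searched alike. Promoters with the NRF1 sequence made up 1.75% of all and 0 of the 37 members. Either E2F4 sequence stood in 4.13% of all promoters (3.05% for TTTCCCGC, 1.12% for TTTGGCGC) and in the promoters of WNT7B and DKK3. Either EGR1 sequence stood in 10.3% of all promoters (1.56% for GCGTGGGCG, 9% for GCGGGGGCG) and in those of WNT2, WNT3A, WNT6, WNT7A, WNT9B and WNT10A. The forms searched for 1 TF differ by base and cannot match at the same position on 1 strand, and no sequence was searched for the other TFs.

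Stretches of 120 bases are shown for called ligands with a match outside the annotated transcript, and for WNT9A and SFRP5 as called genes with none, written 5′ to 3′ on the strand of the gene, with the match in capitals (in its reverse complement form CGCCCCCGC where it lies on the opposite strand):
WNT7A, chr3:13921569-13921688, minus strand: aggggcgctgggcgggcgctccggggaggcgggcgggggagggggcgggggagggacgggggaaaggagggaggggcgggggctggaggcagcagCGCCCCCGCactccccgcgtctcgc
WNT6, chr2:219724408-219724527, plus strand: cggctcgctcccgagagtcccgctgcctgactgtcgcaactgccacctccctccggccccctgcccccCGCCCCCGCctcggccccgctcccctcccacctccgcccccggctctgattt
WNT3A, chr1:228194559-228194678, plus strand: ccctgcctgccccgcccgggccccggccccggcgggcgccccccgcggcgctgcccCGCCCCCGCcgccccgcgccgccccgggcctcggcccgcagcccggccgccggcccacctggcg
WNT7B, chr22:46373314-46373433, minus strand: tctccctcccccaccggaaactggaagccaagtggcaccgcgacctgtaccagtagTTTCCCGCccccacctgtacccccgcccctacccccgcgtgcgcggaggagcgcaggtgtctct
WNT9A, chr1:228135634-228135753, minus strand: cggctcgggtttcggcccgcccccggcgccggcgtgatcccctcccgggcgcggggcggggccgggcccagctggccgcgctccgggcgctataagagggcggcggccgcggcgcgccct
SFRP5, chr10:99531757-99531876, minus strand: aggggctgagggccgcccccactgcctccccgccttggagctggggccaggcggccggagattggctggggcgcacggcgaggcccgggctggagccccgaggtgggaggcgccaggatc

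The match of WNT7A lay 25 to 17 bases before the start, that of WNT6 at 52 to 44 and that of WNT3A at 84 to 76, all on the opposite strand. The match of WNT7B lay 335 to 328 bases before the start on the strand of the gene. WNT2 had its match 54 to 46 bases before the canonical start, inside the span of a longer transcript. Of the 6 members with an EGR1 sequence, WNT7A alone was called in the EGR1 library, and of the 2 with an E2F4 sequence, WNT7B rose in the E2F4 library and DKK3 had 60 counts there, against 70 in the control library. These matches are letters in a window and say nothing of binding. The stretches are rich in G and C, as were the members that rose: over 300 bases before the start, the 11 members that rose in any library had a median GC content of 74% (50.3 to 86.3), the 26 other members 65.8%, and all promoters 62%. The 10 Frizzled promoters, none of them of a called gene, had a median of 72.3%.

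The 10 Frizzled receptors, membrane proteins that bind the ligands, were all at 1 CPM or more in every library and none was called in any. Of the 12095 protein-coding genes under the same limit, 0.0579% (TFCP2) to 2.36% (NRF1) rose in a library, so none of 10 is near that share. Their log2 fold changes over 80 gene-library pairs ran between -0.50 (FZD8 in NRF1) and 0.79 (FZD9 in NKX2-8), and their median per library lay between -0.15 (NKX2-8) and 0.07 (EGR1). FZD8 had 346 counts in NRF1, 544 in E2F4, 401 in EGR1, 337 in ZBTB7A, 376 in HOXA11, 490 in RORA, 502 in TFCP2 and 344 in NKX2-8, against 570 in the control library, which was the highest for this gene alone among the receptors after scaling. The NRF1 ratio of FZD8 was 0.704 (0.614 to 0.806). FZD9 had 186 counts in NKX2-8, 178 in NRF1, 167 in HOXA11 and 120 to 150 in the remaining 5 TF libraries, against 130 in the control library. Its NKX2-8 ratio was 1.75 (1.39 to 2.20).

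FZD4 had 198 counts in NRF1 and 111 to 168 in the other TF libraries, against 159 in the control library, and its NRF1 ratio was 1.44 (1.17 to 1.79). FZD7 had 438 to 700 counts in the TF libraries and 616 in the control library, FZD1 had 219 to 378 and 319, FZD2 had 307 to 420 and 401, and FZD3 had 266 to 368 and 391. FZD5 had 257 to 435 counts in the TF libraries and 332 in the control library, FZD6 had 217 to 286 and 275, and FZD10 had 67 to 96 and 103. Summed over the 10 genes the level was 162 CPM (NKX2-8) to 190 CPM (E2F4) in the TF libraries and 179 CPM in the control library, a narrower span than that of the ligands. Whether the ligands and the receptors differ in their response was not tested.

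**Figure D3:**
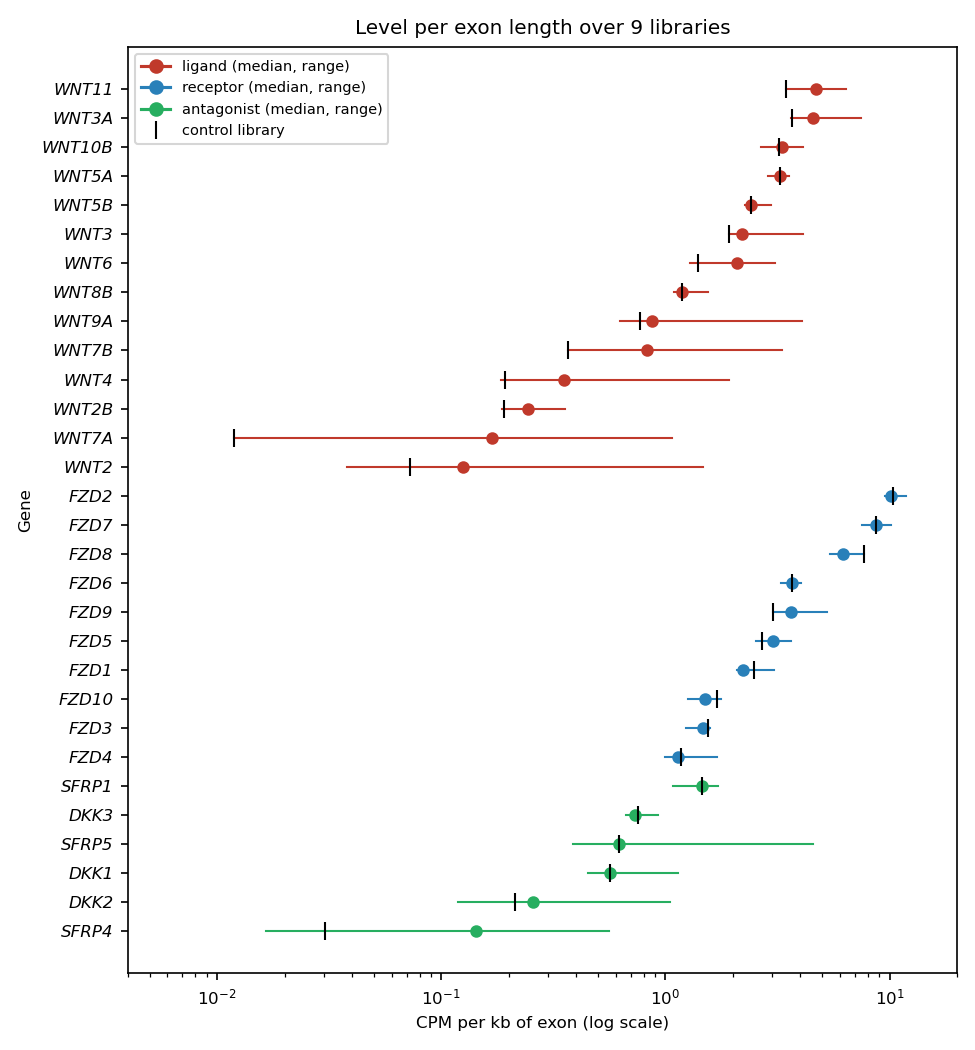
Level of each expressed member in CPM per kb of exon on a log scale, where points are medians and lines ranges over the 9 libraries and vertical ticks mark the control library. FZD2, FZD7 and FZD8 had the highest medians (10.2, 8.68 and 6.21 CPM per kb), and WNT7A the widest range.

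On the scale of CPM per kb of exon, which allows genes to be compared, the receptors FZD2 (median over 9 libraries 10.2), FZD7 (8.68) and FZD8 (6.21) led all members. FZD6 (3.68), FZD9 (3.63), FZD5 (3.01), FZD1 (2.23), FZD10 (1.49), FZD3 (1.48) and FZD4 (1.14) followed. Neighbours in this order overlapped in range, except FZD8 with FZD6 and FZD1 with FZD10. Among the ligands WNT11 (4.68) and WNT3A (4.54) led, followed by WNT10B (3.31), WNT5A (3.24), WNT5B (2.40), WNT3 (2.20), WNT6 (2.09) and WNT8B (1.18), each overlapping its neighbour in range. WNT9A (0.867), WNT7B (0.824), WNT4 (0.352), WNT2B (0.243), WNT7A (0.169) and WNT2 (0.125) were lower, and also overlapped from each to the next. Thus 5 of the 8 called ligands (WNT9A, WNT7B, WNT4, WNT7A and WNT2) were among the 6 expressed ligands of lowest median level per kb. Counting error follows the counts, which this scale does not show. Without the division by length, the median was 0.375 CPM for WNT2, 0.773 for WNT7A, 1.59 for WNT4, 3.44 for WNT9A and 4.16 for WNT7B. The antagonists stood at 1.45 (SFRP1), 0.728 (DKK3), 0.622 (SFRP5), 0.566 (DKK1), 0.256 (DKK2) and 0.143 (SFRP4), and of these neighbours SFRP1 and DKK3 alone had ranges apart.

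Among the antagonists, SFRP5, SFRP4 and DKK2 rose in at least 1 library and SFRP1, DKK1 and DKK3 were not called. SFRP5, a secreted binder of Wnt ligands (chr10:99526508-99531756, minus strand), had 67 counts in NRF1, 150 in E2F4, 27 in EGR1, 14 in ZBTB7A, 12 in HOXA11, 26 in RORA, 18 in TFCP2 and 16 in NKX2-8, against 21 in the control library. The ratio was 3.70 (2.24 to 6.36) in NRF1 and 7.35 (4.64 to 12.2) in E2F4. SFRP4 had 32 counts in NRF1, 7 in E2F4, 13 in EGR1, 1 in ZBTB7A, 1 in HOXA11, 16 in RORA, 9 in TFCP2 and 21 in NKX2-8, against 2 in the control library. Its ratio was 18.6 (4.73 to 160) in NRF1 and 12.8 (3.13 to 113) in NKX2-8, with wide intervals because of the 2 counts in the control library. DKK2, which binds the LRP co-receptors (chr4:107842959-108204963, minus strand), had 72 counts in NRF1, 10 in E2F4, 27 in EGR1, 16 in ZBTB7A, 25 in HOXA11, 14 in RORA, 9 in TFCP2 and 19 in NKX2-8, against 17 in the control library. The NRF1 ratio was 4.91 (2.87 to 8.89).

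The NRF1 library thus had 3 risen antagonists. It held 26166 detected genes, more than all but the EGR1 library, and the highest endothelial marker sum (3.28 CPM, mostly KDR). The part of either in these values was not tested. DKK1, the best-known DKK, had 40 counts in NRF1 and 16 to 23 in the other TF libraries, against 23 in the control library. Its NRF1 ratio was 2.02 (1.18 to 3.53), and its log2 fold change with the prior count, 0.95, lay just under the limit. DKK3 had 55 to 71 counts in the TF libraries and 70 in the control library, and SFRP1 had 90 to 132 and 127. DKK4 and SFRP2 had no count in any of the 9 libraries. The summed level of the 8 antagonists was 25.1 CPM in NRF1, 19.8 in E2F4 and 11.8 to 16.5 in the remaining TF libraries, against 14.1 CPM in the control library.

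In a contrast of the 4 CLB_TF libraries with the 4 libraries of control TFs, edgeR's quasi-likelihood test was used, in which each TF is 1 value and the spread is that between TFs. None of the 29 members tested passed an adjusted p of 0.05 in edgeR, where 6 of 15012 genes did (0.0400%), while DESeq2 called 4 of 32 (WNT2, WNT7A, WNT7B and WNT11) with a background of 0.865% of all genes. An unadjusted p under 0.05 was found in edgeR for 8 of the 29, all higher in the CLB_TF libraries, where 5.75% of all genes tested had such a p and were higher and 4.45% had one and were lower. For 5 of the 29 members every CLB_TF library was above every control TF library, which held for 2.44% of all genes tested, and for none was it the reverse, which held for 4.36%. WNT7A averaged 3.50 ± 1.48 CPM in CLB_TF libraries and 0.431 ± 0.341 CPM in control TF libraries (SD, n = 4 each), a log2 difference of 3.03 (SE 0.51) with an edgeR adjusted p of 0.0715, and the groups did not overlap. WNT7B averaged 9.51 ± 4.96 CPM in CLB_TF and 3.29 ± 0.603 CPM in control TF libraries (log2 difference 1.54, SE 0.30, edgeR adjusted p 0.127), again without overlap.

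WNT11 averaged 13.9 ± 1.57 CPM in CLB_TF and 9.79 ± 1.05 CPM in control TF libraries (log2 difference 0.52, SE 0.12, edgeR adjusted p 0.182) without overlap, although no single library reached 2-fold over the control library. The 2 receptors among the 8 were FZD7 (36.8 ± 1.87 CPM in CLB_TF and 31.9 ± 1.95 CPM in control TF libraries, log2 difference 0.22, edgeR adjusted p 0.345) and FZD5 (21.6 ± 1.90 and 18.7 ± 1.38 CPM in the same order, log2 difference 0.22, edgeR adjusted p 0.436), and neither overlapped between the groups, FZD5 by a margin of 20.3 CPM in the lowest CLB_TF library to 20.2 CPM in the highest control TF library. SFRP5, WNT4 and WNT9A overlapped between the groups and had edgeR adjusted p values of 0.307, 0.344 and 0.428. WNT2 was below the count filter of edgeR. Leaving out the EGR1 library brought 2 members past the threshold (WNT2, adjusted p 0.0349, and WNT7A, adjusted p 0.0415, both edgeR), leaving out ZBTB7A brought 1 (WNT7A, edgeR adjusted p 0.0497), and leaving out any other library none. DESeq2 also gave an adjusted p of 8.55e-06 for WNT7A.

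**Figure D4:**
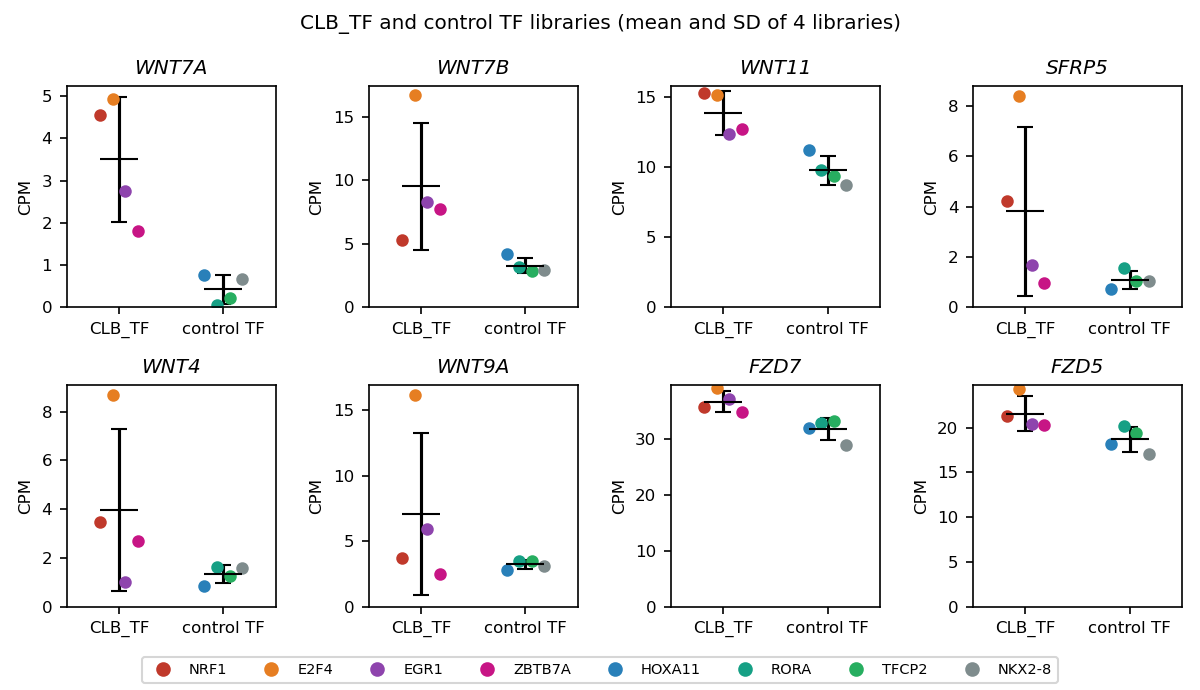
Level in CPM, on axes from 0, of the 8 members with an unadjusted p under 0.05 between CLB_TF libraries (left in each panel) and control TF libraries (right), with 1 point per library and the mean and SD of 4 libraries. WNT7A, WNT7B, WNT11, FZD7 and FZD5 do not overlap between the groups and are higher in CLB_TF libraries, which held for 2.44% of all genes tested. The E2F4 point is far above the other CLB_TF points for SFRP5, WNT4 and WNT9A.

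Other genes of the pathway were followed with the same 2-fold limit in 5 lists that share some genes, and none of them fell. Among 24 genes for Wnt secretion, co-receptors and the R-spondin branch, 5 of 22 tested rose in NRF1 (background of all protein-coding genes 6.48%). In E2F4 1 of 19 rose (3.35%), in EGR1 1 of 20 (2.13%) and in ZBTB7A 1 of 19 (1.72%). None rose in the other 4 TF libraries (0.319% to 2.42%). NOTUM, an extracellular enzyme that removes the lipid of Wnt proteins, had 302 counts in NRF1, 581 in E2F4, 161 in EGR1, 138 in ZBTB7A, 131 in HOXA11, 112 in RORA, 91 in TFCP2 and 137 in NKX2-8, against 116 in the control library (log2 fold change 1.58 in NRF1 and 2.34 in E2F4). LGR6, an R-spondin receptor, had 11 counts in NRF1, 4 in E2F4, 22 in EGR1, 15 in ZBTB7A, 5 in HOXA11, 4 in RORA, 12 in TFCP2 and 13 in NKX2-8, against 4 in the control library. It was called in EGR1 and ZBTB7A (log2 fold change 2.14 and 1.77), while NRF1, TFCP2 and NKX2-8 (1.27, 1.25 and 1.54) stayed under 1 CPM. The R-spondins, which enhance Wnt signals, were named after their values were seen. RSPO3 had 71 counts in NRF1 and 3 in the control library, RSPO2 had 33 and 3, and RSPO1 had 21 and 3 (log2 fold change 4.02, 2.95 and 2.35). RSPO4 did not rise, with 4 counts in NRF1 and 4 in the control library (0.14). TRABD2A, a protease that acts on Wnt proteins and the fifth gene of this list to rise in NRF1, had 39 counts in NRF1 and 17 in the control library. RSPO1, RSPO2, RSPO3, TRABD2A and LGR6 were all under 1 CPM in the control library. They could be tested only where the TF library reached 1 CPM, and so could pass only by being higher there. The counts of this list beside the background carry that limit.

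Of 33 genes of the cytoplasmic and nuclear core of the beta-catenin branch, 32 were tested and 2 rose, both in E2F4 (background 3.35%). Both were named after their values were seen. TCF7, a TCF factor, had 895 counts in E2F4 and 294 in the control library (log2 fold change 1.64), and TLE2, a co-repressor that binds TCF factors, had 1017 and 299 (1.80). Of 28 common beta-catenin target genes, 4 of 24 tested rose in E2F4 (NOTUM, TCF7, NKD1 and APCDD1), 2 of 23 in NRF1 (NOTUM and FOSL1) and none of 23 in EGR1, beside the backgrounds of 3.35% in E2F4, 6.48% in NRF1 and 2.13% in EGR1. NOTUM is also in the secretion list, TCF7 in the core list and APCDD1 in the list of other antagonists. Their calls are therefore counted in both lists. NKD1 had 664 counts in E2F4 and 292 in the control library, and APCDD1 had 160 and 76. AXIN2, the target most often used as a readout of the canonical branch, had 211 counts in E2F4 and 208 in the control library (log2 fold change 0.06), and was not called in any library. FOSL1, an AP-1 subunit, rose in 6 TF libraries (all but E2F4 and EGR1), with 42 counts in NRF1, 30 in E2F4, 30 in EGR1, 36 in ZBTB7A, 54 in HOXA11, 44 in RORA, 42 in TFCP2 and 68 in NKX2-8, against 18 in the control library, below every TF library. The 6 calls share this control value, which was just under 1 CPM, so FOSL1 could be tested only through the TF library. The background in these 6 libraries was 0.319% (TFCP2) to 6.48% (NRF1).

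Of 9 antagonists outside the SFRP and DKK families, DRAXIN rose in NRF1 (25 counts in NRF1 and 1 in the control library, named after its values were seen) and APCDD1 in E2F4. These were out of 4 tested in NRF1 (background 6.48%) and 3 in E2F4 (3.35%). DRAXIN was under 1 CPM in the control library and could be tested only through the NRF1 library. No gene of 20 in the planar cell polarity branch rose in any library. Per library 0.319% (TFCP2) to 6.48% (NRF1) of all protein-coding genes tested rose, so none of 20 is near that share.

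**Figure D5:**
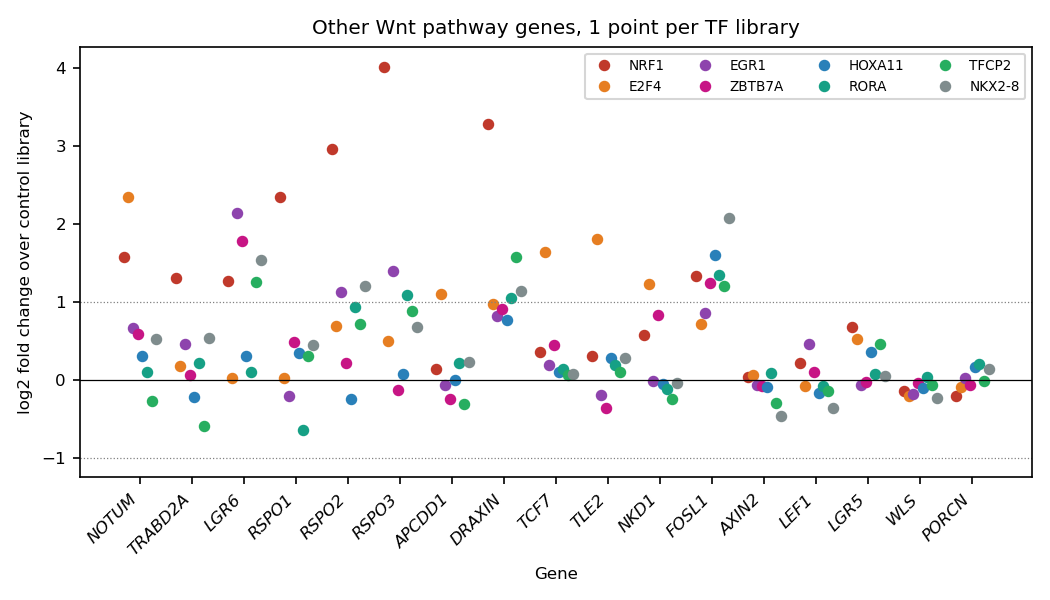
Log2 fold change over the control library of Wnt pathway genes outside the members, with 1 point for each of the 8 TF libraries and dotted lines at the 2-fold limits. RSPO3 (4.02) and DRAXIN (3.27) in the NRF1 library lie highest, and AXIN2, LEF1, LGR5, WLS and PORCN stay inside the limits in all 8 libraries.

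Some members share exon bases with genes on the opposite strand, and since no source used here gives the strand setting of featureCounts, their reads could have been split or mixed. WNT2B shares 2661 exon bases with ST7L (283 to 378 counts), FZD4 shares 1399 with PRSS23 (204 to 406 counts) and FZD6 shares 138 with BAALC-AS1 (10 to 19 counts). No called member shared exon bases with a gene of more than 15 counts in any library.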

How the data were processed

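RNA-seq was analysed in 9 libraries of 293T cells. The authors checked reads with FastQC 0.11.2, aligned them to GRCh37 with STAR 2.6.0c and used featureCounts 1.6.3, and the deposited table holds raw counts per gene without normalization. No source used here gives the strand setting. Fold changes were computed from these counts with TMM factors (0.972 to 1.08) in edgeR 4.0.16 (R 4.3.3) and a prior count of 2, and ratios with exact conditional binomial intervals at 95%. The call required a 2-fold difference and 1 CPM in the higher library. The 2 TF classes were compared with edgeR's quasi-likelihood test after its count filter, with Benjamini-Hochberg adjustment over all genes at 0.05, and with DESeq2 1.42.0 as an alternative. The test was checked on simulated data. Symbols came from GENCODE v44lift37. Members called in any TF library were given in every library, and pathway genes called in 2 or more. Members and lists were chosen with earlier results of these data known. The median total was 17016549 counts, so low genes have wide intervals. The labels do not say whether libraries came from separate cultures. The endothelial list lacked PECAM1, which had no match.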

Additional observations from a re-analysis of the deposited data

Results flagged for a closer look

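Within each group of 4 TF libraries, the highest or lowest library was compared with its nearest neighbour for each expressed member, in 58 groups. In 4 of them a library stood far from the rest (by Dixon's test at the 95% level, on the gap to the nearest value over the whole range), where chance alone gives about 1 in 20 groups. WNT3 was at 17.7 CPM in the E2F4 library, against 8.84 to 9.68 CPM in the other CLB_TF libraries. FZD9 was at 11.2 CPM in the NRF1 library, against 8.40 to 8.50 CPM in the other CLB_TF libraries. DKK1 was at 2.52 CPM in the NRF1 library, against 0.999 to 1.24 CPM in the other CLB_TF libraries. FZD1 was at 16.9 CPM in the NKX2-8 library, against 15.4 to 15.5 CPM in the other control TF libraries.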

How the results depend on the processing

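With 1 library per condition, no call against the control library has a replicate check, and low counts leave wide intervals. No paired analysis was possible because the labels carry no replicate numbers. All 23 calls held with library totals and with DESeq2 size factors, and 22 with a prior count of 5. A minimum of 0.5 CPM or none and 1.5-fold only loosen the limits, so all 23 had to hold there. All 23 also held with a prior count of 0.5, which draws low counts less towards 0. A minimum of 5 CPM kept 10. The number of members called moved as follows. In NRF1 (7) it was 1 at 5 CPM, 11 with no minimum, 4 against the averaged 7 other TF libraries and 13 at 1.5-fold. In EGR1 (2) it was 4 at 0.5 CPM, 1 at 5 CPM, 5 with no minimum and 6 at 1.5-fold, and against the other TF libraries the 2 calls were others, WNT2 and WNT4, which fell (-1.61 and -1.42). In ZBTB7A (4) it was 2 at 5 CPM, 8 with no minimum, 2 (both fell) against the other TF libraries and 2 against the mean of the control TF libraries, a baseline chosen after seeing the data. In HOXA11 (1) it was 2 at 0.5 CPM, 0 at 5 CPM, 2 with no minimum, 4 (all fell) against the other TF libraries, 0 against the control TF libraries and 6 at 1.5-fold. In RORA (0) it was 1 at 0.5 CPM, 2 with no minimum, 3 (all fell) against the other TF libraries and 2 at 1.5-fold. In TFCP2 (0) it was 1 at 0.5 CPM, 3 with no minimum, 6 (all fell) against the other TF libraries, 1 (fell) against the control TF libraries and 1 at 1.5-fold. In NKX2-8 (1) it was 2 at 0.5 CPM, 0 at 5 CPM, 3 with no minimum, 4 (all fell) against the other TF libraries and 4 at 1.5-fold. In E2F4 (8) it was 6 to 10, with 7 against the other TF libraries, of which 6 rose and DKK2 fell (-1.37). Against the averaged other TF libraries 10 calls held, 10 fell below the limit and 3 changed sign: WNT7A in ZBTB7A (-0.14), WNT7B in NRF1 (-0.30) and WNT7B in HOXA11 (-0.67). Against the control TF libraries 17 held. Between CLB_TF and control TF libraries, 0 members passed in edgeR, 7 with no filter on low counts, 4 in DESeq2 and 0 to 2 when 1 library was left out. Over all genes the edgeR test called 6, with library totals 1, with no filter 795, in DESeq2 161, and 0 to 60 when 1 library was left out.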
